A study of Mus musculus with 2 samples.

Results

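The genes described here encode FXYD proteins, a sodium pump subunit, subunits of the epithelial sodium channel and the chloride channel CFTR. They were chosen by gene symbol, with the copy numbers of these libraries already known, and 8 of the 9 listed genes (Fxyd1, Fxyd3, Fxyd4, Fxyd5, Atp1b1, Scnn1a, Scnn1b and Cftr) were found among the 14678 genes of the deposited table. Scnn1g, the gamma subunit of the sodium channel, was not analysed here. Their levels and the ratio between the libraries are therefore given as a description, with no test.

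RNA of mouse uteri at gestation day 2.5 (G2.5) was measured by digital gene expression (DGE), in which short sequence tags are counted and each is assigned to a gene. The count of a gene is its copy number. All mice were littermates of 9 to 10 weeks and carried the genotype VEGFtetO/tetO/beta-AKtg/wt, with 4 tet operators inserted in the VEGF promoter and a tetR-Krab repressor driven by the β-actin promoter, so the Dox+ mice, labelled VEGF-normal (wild type), also carried both changes. Dox+ mice ate doxycycline chow, which releases the repressor from VEGF, and Dox− mice (VEGF-repression) had been taken off doxycycline at an age of 3 to 4 weeks, about 6 weeks before RNA isolation. VEGF repression and the absence of doxycycline cannot be told apart in this design. RNA of 3 uteri was pooled per condition and 1 library was made from each pool, so a difference between the libraries has no replicate check.

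The Dox+ library had 5985925 clean tags and the Dox− library 5844314, of which 74.1% and 72.2% were copies assigned to genes of the table. Levels are given as copies per 1000000 clean tags (TPM), with no correction for transcript length, and every interval is an exact 95% Clopper-Pearson interval. The intervals cover counting error only, since amplified tags are not independent molecules. Vegfa, the repressed gene, had 247 copies in Dox+ and 125 in Dox−, a level 1.93-fold lower (95% interval 1.55 to 2.41). All 10 genes listed as uterine markers were detected in both libraries. Several of them are also markers of smooth muscle, epithelium or stroma and do not define the organ. Among the 10 were Myh11 with 4609 and 3169 copies, Hoxa10 with 3120 and 1060, and Ltf, an estrogen-responsive secretory gene, with 905 and 2639.

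The sodium pump, an enzyme of an alpha and a beta subunit, moves sodium out of the cell and potassium in, and FXYD proteins are small membrane proteins that bind the pump and tune its activity. In epithelia the pump on the basolateral side keeps the sodium gradient, sodium enters from the lumen through the epithelial sodium channel (ENaC), and CFTR lets chloride out, so that these proteins together set whether fluid is absorbed or secreted. In the uterus, absorption and secretion of luminal fluid are under the control of estrogen and progesterone, and the lumen closes around the embryo before attachment.

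The ENaC subunits Scnn1a and Scnn1b, the pump subunit Atp1b1 and the FXYD genes Fxyd4 and Fxyd1 were lower in Dox−, while Cftr was higher. Fxyd3 differed by less than 1.5-fold, and Fxyd5 was barely detected. Among the members, 4 had at least 200 copies in both libraries together, the minimum used here for counting genes, and 3 of these were lower by at least 1.5-fold and none was higher. Over all 6547 genes with that many copies, 14.7% were lower and 15.2% higher by at least 1.5-fold, 29.9% in either direction, and the median log2 ratio of Dox− over Dox+ was 0.03. From 20 copies together, 7 members could be compared, of which 5 were lower and 1 was higher, beside 18.7% and 19.7%, or 38.4% in either direction, of 12079 genes. The same members passed 2-fold, beside 5.62% lower and 4.61% higher (10.2% in either direction) of the genes with 200 copies and 9.02% lower and 8.18% higher (17.2%) of those with 20. Because the members were chosen for these values, nothing is read from their counts against these shares.

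**Figure D1:**
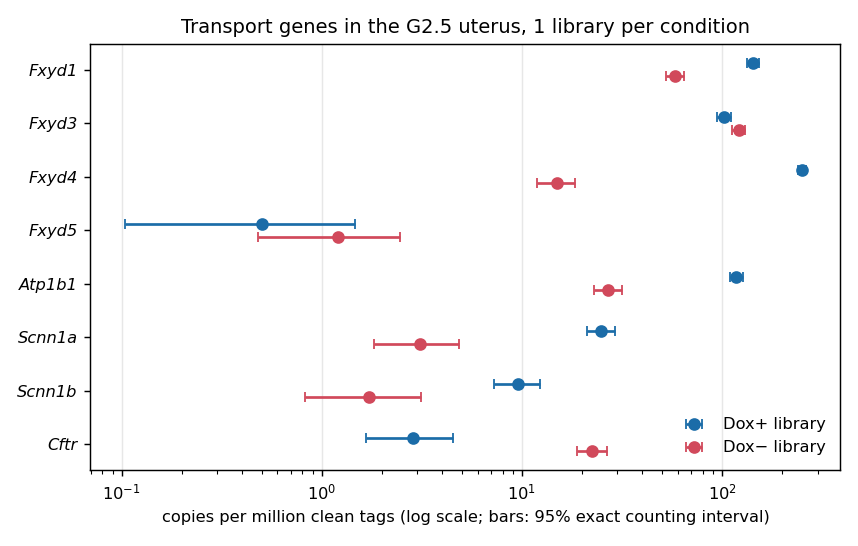
Level of each transport gene in TPM (horizontal log axis) in the Dox+ library (blue) and the Dox− library (red), with bars for the exact 95% counting interval. The intervals of the libraries are apart for Fxyd1, Fxyd4, Atp1b1, Scnn1a, Scnn1b and Cftr, nearly adjoin for Fxyd3 (102 and 121 TPM) and overlap for Fxyd5.

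Fxyd4, also called CHIF, raises the affinity of the pump for sodium in kidney and colon epithelium. It lies on chromosome 6, from 117883747 to 117887353 on the minus strand of NCBIM37 (gene ID 108017). Fxyd4 had 1501 copies in Dox+ and 87 in Dox−, or levels of 251 (238 to 264) and 14.9 (11.9 to 18.4) TPM. The level in Dox− was 16.8-fold lower (13.6 to 21.2), and by the ratio Fxyd4 stood at rank 11 from the lowest of the 6547 genes with 200 copies or more together. The genes with the nearest log2 ratio to its -4.07, over these 2 libraries alone, were Ihh at -4.09, Fst at -4.01 and Maob at -4.15, where Ihh encodes a progesterone-induced epithelial ligand, Fst an activin-binding protein and Maob a monoamine oxidase. Ihh had 646 and 37 copies, Fst 725 and 44, and Maob 888 and 49.

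Fxyd1, or phospholemman, is the FXYD protein of heart, skeletal and smooth muscle. Its copies numbered 853 in Dox+ and 341 in Dox−, which are 143 (133 to 152) and 58.3 (52.3 to 64.9) TPM, and the level was 2.44-fold lower in Dox− (2.15 to 2.78). Muscle markers were lower in the same library. Of 10 smooth muscle markers, all with 200 copies or more, 6 were lower by at least 1.5-fold and none was higher, beside 14.7% and 15.2% of all such genes. The median log2 ratio of these markers was -0.74, with a summed level of 8194 TPM in Dox+ and 5483 in Dox−. Tagln had 11417 and 8854 copies, Mylk 9121 and 5256, and Actg2 7436 and 5086. Of 10 listed skeletal muscle markers 6 were in the table, none at 0. Myh1, Myh2, Myh4 and Myl1 were not among them. The 6 summed to 652 TPM in Dox+ and 235 in Dox−, and Acta1 made up 3385 of their 3905 copies and 1241 of 1376. The sum is therefore mostly the level of Acta1 and is not read as an amount of skeletal muscle. Tnni2 had 408 and 99 copies, Tnnt3 50 and 12, Ckm 33 and 13 and Mylpf 5 and 3. Only Acta1 and Tnni2 had 200 copies or more together, and both were lower (median log2 ratio -1.71). The log2 ratio of Fxyd1, -1.29, lay below that of each of the 10 smooth muscle markers, of which Smtn was lowest at -0.92. It lay above those of Acta1 (-1.41) and Tnni2 (-2.01). The part of muscle content in the ratio of Fxyd1 was not tested. In a bulk library, fewer cells of a type and less RNA per cell cannot be told apart.

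Fxyd3, a pump regulator of stomach, colon and other epithelia, had 613 copies in Dox+ and 707 in Dox−, 102 (94.5 to 111) and 121 (112 to 130) TPM. Its ratio of 1.18 (1.06 to 1.32) lay inside 1.5-fold in either direction. Fxyd5, or dysadherin, a pump regulator that is also tied to cell adhesion, had 3 and 7 copies, a ratio of 2.39 with an interval from 0.546 to 14.3 that spans 1, so that no difference was detectable at this depth.

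Fxyd5, Fxyd7, Fxyd1 and Fxyd3 lie in this order within 43983 bases of chromosome 7, all on the minus strand, with 35 bases between Fxyd5 and Fxyd7 and 218 between Fxyd7 and Fxyd1 in the NCBIM37 annotation. The intervals of Fxyd1, which was lower, and Fxyd3, inside 1.5-fold, do not meet. Fxyd7 had 14 and 9 copies, a ratio of 0.658 whose interval (0.251 to 1.63) holds those of both Fxyd1 and Fxyd3. Fxyd6, on chromosome 9 and known as phosphohippolin from the nervous system, had 299 copies in Dox+ and 90 in Dox−, 3.24-fold lower (2.55 to 4.15). Fxyd2, the gamma subunit of the kidney pump, is its neighbour on chromosome 9 and had 7 and 9 copies, a ratio of 1.32 (0.436 to 4.16). Lgi4, which overlaps Fxyd3 on the opposite strand, had 12 and 6 copies, and since sense and antisense tags were both searched it is not stated whether the copies of a gene are of the sense strand alone.

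All 7 FXYD genes together had 3290 copies in Dox+ and 1250 in Dox−, 550 and 214 TPM, a sum 2.57-fold lower (2.41 to 2.74). Fxyd4 made up 45.6% (43.9 to 47.3) of the FXYD copies in Dox+ and 6.96% (5.61 to 8.51) in Dox−. The share of Fxyd3 was 18.6% in Dox+ and 56.6% (53.8 to 59.3) in Dox−. Fxyd1 held 25.9% and 27.3%, with overlapping intervals. When each copy number was divided by the length of the longest annotated transcript, the share of Fxyd4 was 41.2% and 7.67%, that of Fxyd3 6.97% and 25.8%, and that of Fxyd1 45.3% and 58.2%. On both scales the share of Fxyd4 was lower and that of Fxyd3 higher in Dox−, and per length Fxyd1 was the leading FXYD gene of both libraries.

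**Figure D2:**
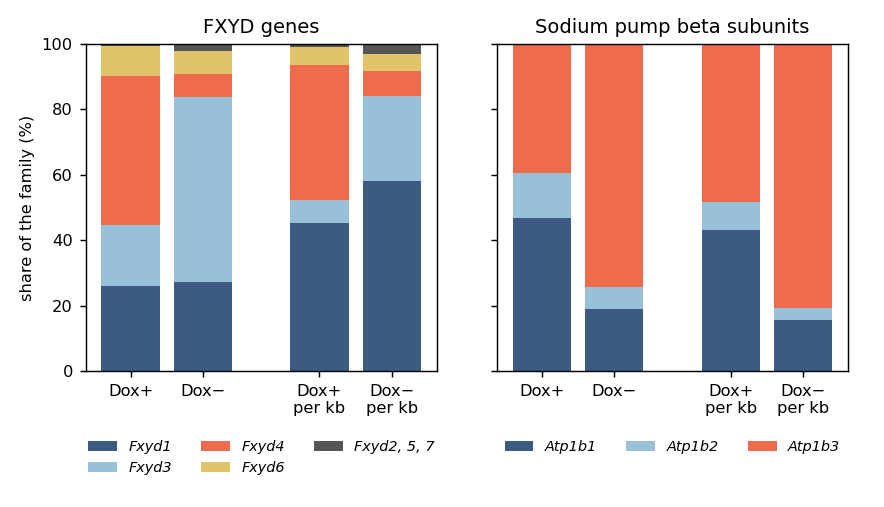
Share (%, vertical axis from 0 to 100) of each gene in the summed copies of the FXYD genes (left) and of the sodium pump beta subunits (right) in the Dox+ and Dox− libraries, by copies and after division by transcript length (per kb). The Fxyd4 band goes from 45.6% to 6.96% and the Atp1b1 band from 46.7% to 19.1% by copies.

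Atp1b1 encodes the main beta subunit of the pump in epithelia, which brings the alpha subunit to the membrane. The gene is on chromosome 1, from 166367398 to 166388486 on the minus strand of NCBIM37 (gene ID 11931). Its copies numbered 706 in Dox+ and 158 in Dox−, or 118 (109 to 127) and 27.0 (23.0 to 31.6) TPM, a 4.36-fold lower level in Dox− (3.67 to 5.22). Atp1b2, the beta subunit best known from glia, was lower too, with 211 and 56 copies and a fold of 3.68 (2.73 to 5.03). Atp1b3 had 596 and 615 copies, a ratio of 1.06 (0.943 to 1.18) that spans 1. In the summed copies of these beta subunits, Atp1b1 had 46.7% (44.1 to 49.2) in Dox+ and 19.1% (16.4 to 21.9) in Dox−, and Atp1b3 had 39.4% (36.9 to 41.9) and 74.2% (71.1 to 77.1). Summed, the beta subunits were at 253 TPM in Dox+ and 142 in Dox−, 1.78-fold lower (1.64 to 1.94). Per length, Atp1b1 held 43.2% and 15.6%, and Atp1b3 48.4% and 80.8%.

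Scnn1a encodes the alpha subunit that ENaC needs for its current, and Scnn1b the beta subunit. Scnn1a is on chromosome 6, from 125271358 to 125294958 (plus strand, gene ID 20276), and Scnn1b on chromosome 7, from 129008591 to 129062029 (plus strand, gene ID 20277). Scnn1a had 149 copies in Dox+ and 18 in Dox−, 24.9 (21.1 to 29.2) and 3.08 (1.83 to 4.87) TPM. Scnn1b had 57 and 10 copies, 9.52 (7.21 to 12.3) and 1.71 (0.821 to 3.15) TPM. The level was 8.08-fold lower in Dox− for Scnn1a (4.94 to 14.0) and 5.57-fold lower for Scnn1b (2.82 to 12.2), and these intervals overlap. Neither gene reached 200 copies together. Scnn1a held 72.3% (65.7 to 78.3) of the copies of both subunits in Dox+ and 64.3% (44.1 to 81.4) in Dox−, so that a difference in their balance was not detectable at this depth. Cog7 overlaps Scnn1b on the opposite strand and had 105 and 118 copies.

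Cftr encodes the chloride and bicarbonate channel that cyclic AMP opens in secretory epithelia, and lies on chromosome 6 from 18120687 to 18272768 (plus strand, gene ID 12638). It had 17 copies in Dox+ and 131 in Dox−, 2.84 (1.65 to 4.55) and 22.4 (18.7 to 26.6) TPM. The level was 7.89-fold higher in Dox− (4.75 to 14.0), opposite in direction to the ENaC subunits, although it did not reach 200 copies together. By the size of the difference, Fxyd4 lay apart from Atp1b1 and Atp1b1 from Fxyd1, whose intervals do not meet, while the intervals of Scnn1a and Scnn1b overlap each other and that of Atp1b1, and the interval of Scnn1a also meets that of Fxyd4.

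The 250 bases upstream of the transcription start are shown for Fxyd4, Scnn1b, Atp1b1 and Cftr, the members with the widest differences in their group that have an entry, to set the sequence of genes lower in Dox− beside that of the gene that was higher. RefSeq promoters of build GRCm38.p6 matched 8 of the 9 listed genes, all but Scnn1a. Capitals mark GGGCGG, the core of the GC box, and AGGTCA, part of the element of the estrogen receptor and related receptors, each on either strand.
Fxyd4, chr6:117937336-117937585, minus strand: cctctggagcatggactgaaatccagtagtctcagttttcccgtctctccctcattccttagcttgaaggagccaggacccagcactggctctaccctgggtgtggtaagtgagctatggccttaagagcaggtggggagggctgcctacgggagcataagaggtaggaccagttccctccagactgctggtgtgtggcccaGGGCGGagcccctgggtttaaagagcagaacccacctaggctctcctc
Scnn1b, chr7:121864788-121865037, plus strand: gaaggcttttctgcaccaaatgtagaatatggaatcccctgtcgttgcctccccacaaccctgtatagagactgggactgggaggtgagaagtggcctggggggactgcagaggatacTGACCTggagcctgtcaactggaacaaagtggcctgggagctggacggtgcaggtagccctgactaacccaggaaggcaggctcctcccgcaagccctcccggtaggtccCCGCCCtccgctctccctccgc
Atp1b1, chr1:164458356-164458605, minus strand: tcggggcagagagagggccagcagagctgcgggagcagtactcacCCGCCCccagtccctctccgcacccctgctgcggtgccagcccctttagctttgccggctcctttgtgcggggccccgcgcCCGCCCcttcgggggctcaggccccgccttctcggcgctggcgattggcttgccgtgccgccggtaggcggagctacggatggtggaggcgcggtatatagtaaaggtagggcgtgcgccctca
Cftr, chr6:18170437-18170686, plus strand: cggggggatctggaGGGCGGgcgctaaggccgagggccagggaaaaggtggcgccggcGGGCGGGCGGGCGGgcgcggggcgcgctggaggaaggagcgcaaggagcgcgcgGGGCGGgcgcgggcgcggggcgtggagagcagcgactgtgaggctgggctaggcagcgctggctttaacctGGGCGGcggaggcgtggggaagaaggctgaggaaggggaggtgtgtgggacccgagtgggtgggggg

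These windows differ in base composition. CpG dinucleotides numbered 3 in Fxyd4, 7 in Scnn1b, 24 in Atp1b1 and 30 in Cftr, beside a median of 6 over 32851 promoters, and the GC content was 58.0%, 60.8%, 70.4% and 76.4%. GGGCGG or its reverse complement occurred 1 time in Fxyd4 and Scnn1b, 2 times in Atp1b1 and 6 times, some overlapping, in Cftr, and 32.7% of all promoter windows held it. AGGTCA was found in Scnn1b alone of the 8 matched members, beside 14.0% of all windows. AGAACA, part of the element of the progesterone and glucocorticoid receptors, and TATAAA were in none of the 8 windows, beside 16.1% and 12.4% of all windows, and CCAAT, in 33.8% of all windows, was in those of Atp1b1 and Fxyd3. A match of letters is a description and not a binding site. Of the genes lower in Dox− with an entry, Fxyd4, Scnn1b and Atp1b1 held GGGCGG and Fxyd1 did not.

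Genes known to regulate ENaC were followed as a list of 20, of which 18 were in the table and 15 had at least 200 copies together. In this list 5 genes were lower by at least 1.5-fold, none was higher and 10 lay within 1.5-fold. Of all genes with that many copies, 14.7% were lower and 15.2% higher. The median log2 ratio of the list was -0.12 beside 0.03 over all genes. The lower genes of the list included Sgk1, the kinase that corticosteroids induce and that keeps ENaC at the membrane, with 1198 copies in Dox+ and 187 in Dox−, 6.25-fold lower (5.36 to 7.34). Usp2, a deubiquitinase that acts on ENaC, had 319 and 59 copies and was 5.28-fold lower (3.99 to 7.09). Tsc22d3, which encodes the glucocorticoid-induced leucine zipper GILZ, had 561 and 198 copies and was 2.77-fold lower (2.35 to 3.27). Sgk3, a related kinase, had 181 and 94 copies, and Nedd4l, the ubiquitin ligase that removes ENaC from the membrane, 221 and 140. Cnksr3, a scaffold that aldosterone induces, was named after its values were seen. It had 133 copies in Dox+ and 45 in Dox−, 2.89-fold lower (2.04 to 4.14), below 200 copies together.

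The proteases of the list and Nr3c1, its only receptor gene in the table, lay within 1.5-fold. Nr3c2, the other receptor gene listed, was not in the table. Hsd11b2, which inactivates glucocorticoids, had 3890 copies in Dox+ and 5475 in Dox−, a ratio of 1.44. The glucocorticoid receptor gene Nr3c1, like the proteases named after their values were seen, had 134 and 171 copies, a ratio of 1.31 (1.04 to 1.65). Nedd4 had 3824 and 3427 copies and Spint2, an inhibitor of channel-activating proteases, 759 and 648. The channel-activating proteases Prss8, Furin, St14 and Tmprss2 had ratios from 0.818 to 1.05.

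**Figure D3:**
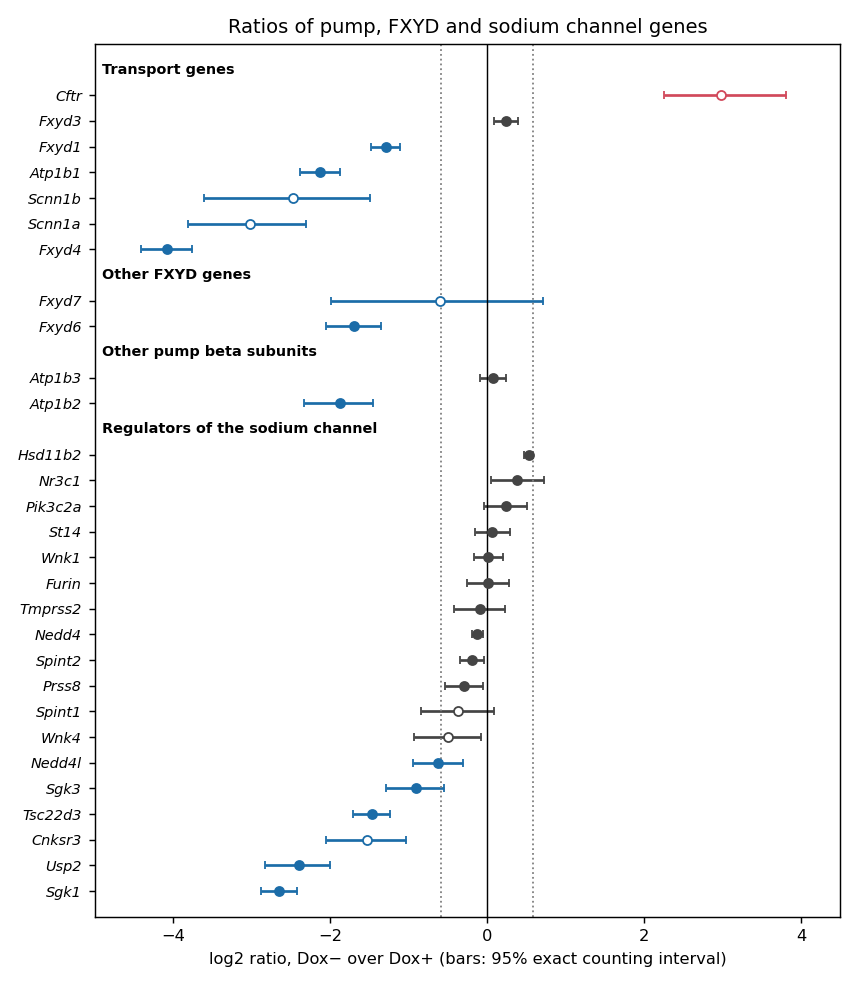
Log2 ratio of Dox− over Dox+ (horizontal axis) of the transport genes, the other FXYD and pump beta subunit genes and the sodium channel regulators with at least 20 copies together, with bars for the exact 95% counting interval, blue for lower, red for higher and grey for within 1.5-fold (dotted lines), and open symbols below 200 copies together. Fxyd4 (-4.07), Scnn1a (-3.01) and Sgk1 (-2.64) lie far to the left and Cftr (2.98) to the right.

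Of 29 genes for chloride and bicarbonate transport and CFTR partners, 25 were in the table and 13 had at least 200 copies together. Of these 13, 1 was lower, 2 were higher and 10 lay within 1.5-fold, beside 14.7% lower and 15.2% higher of all such genes. The median log2 ratio of the list was -0.17. Ano1, a calcium-activated chloride channel of secretory epithelia and pacemaker cells, had 597 copies in Dox+ and 108 in Dox−, 5.40-fold lower (4.39 to 6.69). This is the direction opposite to Cftr. Ezr, encoding ezrin that ties CFTR to the cytoskeleton, had 297 and 542 copies, a ratio of 1.87 (1.62 to 2.16), and Clca3, a secreted chloride channel regulator, 81 and 146, a ratio of 1.85 (1.40 to 2.45). Slc12a2, the sodium-potassium-chloride cotransporter, also named after its values were seen, which loads chloride for secretion, had 231 and 253 copies and an interval that spans 1. The genes of the list with the most copies, Clic4 with 765 and 520, Clic1 with 628 and 540 and Prkaca, a catalytic subunit of protein kinase A, with 591 and 398, lay within 1.5-fold. Slc26a9, an epithelial chloride channel singled out after its values were seen, was at 0 copies in Dox+ and at 13 in Dox−. The interval of a count of 0 in Dox+ reaches 0.616 TPM.

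Potassium channels, potassium-chloride cotransporters and sodium-proton exchangers were represented by 12 of 18 listed genes, 4 of them with at least 200 copies together. Slc12a4, a potassium-chloride cotransporter, had 358 copies in Dox+ and 199 in Dox−, 1.76-fold lower (1.47 to 2.10), and the other 3 lay within 1.5-fold. Of all genes with at least 200 copies together, 14.7% were lower and 15.2% higher. Kcnk1, a background potassium channel, had 251 and 338 copies. Genes of this list with fewer copies, named after their values were seen, included Kcnn4 at 0 and 12 copies. Atp12a, the non-gastric proton-potassium pump, also named after its values were seen, had 20 and 0 copies. The interval of a count of 0 in Dox− reaches 0.631 TPM.

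Since most of the members are epithelial genes, epithelial markers were set beside them. Of 20 listed symbols 18 were in the table and none was at 0. Of the 15 with at least 200 copies together 9 were higher, 2 lower and 4 within 1.5-fold, beside 15.2% higher and 14.7% lower of all such genes. The median log2 ratio of the 15 was 0.85. The 18 summed to 1393 TPM in Dox+ and 2192 in Dox−. Krt19 had 1554 and 2046 copies, Krt8 1330 and 1481, and Cldn7 877 and 2263. Cldn7 was thus higher in the library in which Fxyd4, Scnn1a, Scnn1b and Atp1b1 were lower, while Krt8 and Krt19 lay within 1.5-fold. The 2 lower markers, named for being the exceptions, were the tight junction genes Cldn3, with 1482 and 494 copies, and Cldn4, with 149 and 65. Cftr, with a log2 ratio of 2.98, was higher together with the epithelial markers, and the part of epithelial content in its ratio was not tested.

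**Figure D4:**
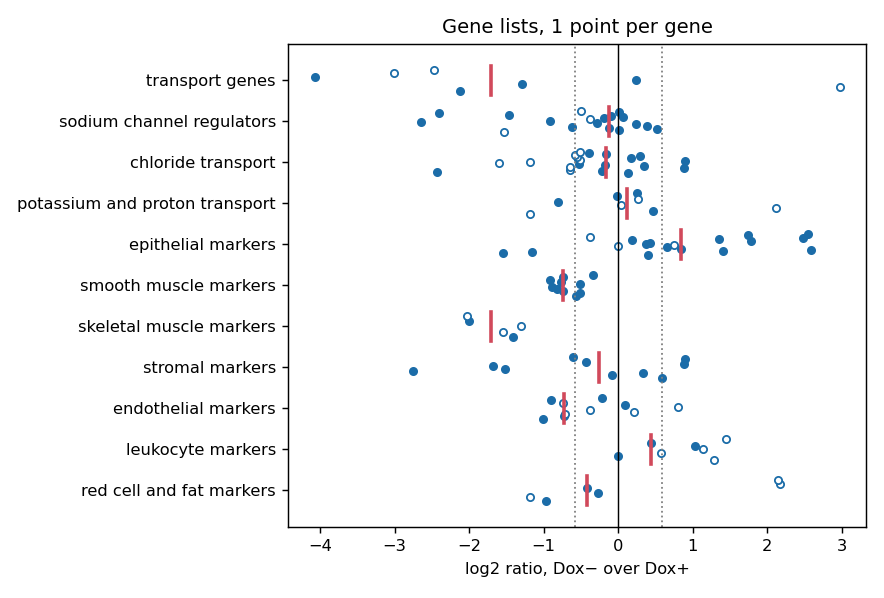
Log2 ratio of Dox− over Dox+ (horizontal axis) of each gene with at least 20 copies together and with copies in both libraries, in the transport genes and the lists of related genes and cell type markers, with open symbols below 200 copies together and a red line at the median of the genes with 200 or more. The medians of the epithelial markers (0.85) and smooth muscle markers (-0.74) lie on opposite sides of 0.

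The other cell type markers are given for completeness of the comparison. Their counts stand beside 14.7% lower and 15.2% higher of all genes with 200 copies or more together. Stromal markers (10 of 10 with 200 copies or more) had 4 lower and 2 higher, a median log2 ratio of -0.25 and sums of 9121 and 10298 TPM. Those with the most copies were Col1a1 at 23017 and 33696 copies, Col3a1 at 18514 and 17098 and Lum at 1549 and 2779. The 4 lower, named for their direction, were Hand2 at 985 and 143, Hoxa11 at 2573 and 785, Hoxa10 at 3120 and 1060 and Vim at 2612 and 1680. Endothelial markers, all 10 in the table and none at 0, had 3 lower and none higher of 5 with 200 copies or more, a median of -0.72 and sums of 258 and 183 TPM, with Cdh5 at 446 and 216 copies, Pecam1 at 243 and 253 and Vwf at 177 and 148. Leukocyte markers had 1 higher of 3, a median of 0.45 and sums of 120 and 199 TPM, with Laptm5 at 224 and 446 copies, Csf1r at 186 and 181 and Lyz2 at 127 and 169. Red cell and fat cell markers had 1 lower of 3, a median of -0.42 and sums of 256 and 227 TPM, with Cfd at 1081 and 875 copies, Fabp4 at 224 and 163 and Adipoq at 157 and 78, all fat cell genes. The alpha globin genes of that list, near-identical copies named after their values were seen and below 200 copies together, lay in the other direction, with Hba-a1 at 26 and 114 copies and Hba-a2 at 19 and 82. Of the uterine markers, some of which are also in the other lists, 3 were lower and 4 higher, with sums of 2620 and 2059 TPM. The part of these markers in the ratios of the members was not tested.

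**Figure D5:**
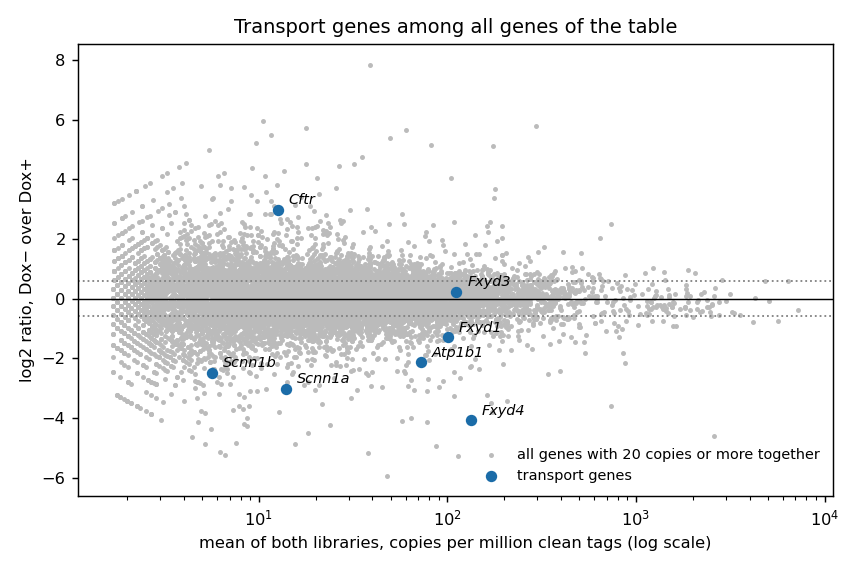
Log2 ratio of Dox− over Dox+ (vertical axis) against the mean level of both libraries in TPM (horizontal log axis) for genes with at least 20 copies together and copies in both libraries (grey), with the transport genes in blue and 1.5-fold marked by dotted lines. Fxyd4 lies near the lower edge of the genes of its level at -4.07, and Fxyd3 at 0.24 lies among the genes within 1.5-fold.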

How the data were processed

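RNA of 3 pooled uteri per condition was profiled by DGE, in 1 Dox+ and 1 Dox− library. According to the paper's methods, adaptor-only tags, low quality tags and tags seen once were removed and the clean tags were aligned to mouse reference mRNAs of mm9. The deposited counts are tags that the authors assigned to each gene, not normalized. In each library their sum is below the number of unambiguously mapped tags that the paper gives. The deposited TPM values are copies scaled to 1000000 clean tags, without a length correction and with 0.01 at 0 copies. CASAVA is named in the submitters' processing notes, and the aligner and enzyme are not given in the sources used here. The labels mention RNA fragmentation while the paper describes tags, so levels of different genes were compared by copies and per transcript length. The deposited ratio, log2 ratio, P-value and FDR hold the authors' comparison and were not used.

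Library sizes were recovered from copies and TPM, which matched at the deposited decimals for all 14050 and 13948 genes with copies. Folds are ratios of copies per clean tag without a pseudocount, with 95% intervals by the exact Clopper-Pearson method on how the copies divide between the libraries. No fold is given against a library at 0. For counting genes past a fold, 0 copies were taken as 3, except with the pseudocount. Genes with 3 copies or fewer in both libraries were left out of these counts. With 1 library per condition no test was made, and a gene was counted as lower or higher at a fold of at least 1.5 with at least 200 copies together. The members and lists were chosen with earlier results of these data known. The text names all members, the other FXYD and pump beta genes, the genes of the other transport lists past 1.5-fold with 200 copies, the 3 genes of each list with the most copies, the 3 genes nearest to Fxyd4 in ratio, and others as stated, and some genes of the lists are not reported here. Alternatives were other library sizes, a pseudocount of 1, minimums of 20 or 0 copies, a fold of 2 and division by length. Intervals were tested on simulated data. Positions and lengths are from the GENCODE annotation of NCBIM37, which is mm9, and promoters from RefSeq on GRCm38.p6. Python 3.11.15, numpy 2.4.6, pandas 2.3.3, scipy 1.17.1, matplotlib 3.10.9, R 4.3.3, edgeR 4.0.16 (TMM) and DESeq2 1.42.0 (size factors) were used.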

Additional observations from a re-analysis of the deposited data

How the results depend on the processing

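The ratios of the 8 members kept their direction and stayed inside their counting intervals under all 4 alternatives run for them, which were library sizes from the copies assigned to genes, TMM factors, DESeq2 size factors, and a pseudocount of 1 copy. Under these 4, stromal markers had 3 lower and 3 higher with the copies assigned to genes, and 7 smooth muscle markers were lower with TMM and with DESeq2 factors, while the other list counts were equal to those reported. The minimum on copies moved most. With 20 copies together, 5 members were lower and 1 higher (median -2.13), 2 other FXYD genes were lower (median -1.15), the median of the other pump genes was -0.13, 5 chloride transport genes were lower (median -0.51), 3 potassium and proton transport genes were lower and 1 higher, 5 skeletal muscle, 5 endothelial and 2 red cell or fat markers were lower, and 1 endothelial, 4 leukocyte (median 1.03) and 2 red cell or fat markers were higher. With no minimum, 5 members were lower and 2 higher, 2 other FXYD genes were lower (median -0.60), 1 other pump gene was higher, 7 chloride transport genes were lower (median -0.51), 4 potassium and proton transport genes were lower and 3 higher, 6 skeletal muscle (median -1.48), 5 endothelial and 2 red cell or fat markers were lower, and 1 endothelial, 6 leukocyte (median 1.03) and 2 red cell or fat markers were higher. These minimums add genes with few copies, among them Fxyd5 with 3 and 7, the second higher member with no minimum. They also add genes at 0 in 1 library, such as Atp12a, which were counted with 3 copies in place of 0. Over all genes, 18.7% were lower and 19.7% higher of 12079 with 20 copies together. With no minimum, these shares were 20.8% and 21.2% of 13727 genes. With a fold of at least 2, 3 sodium channel regulators and 1 endothelial marker were lower, 2 uterine markers were higher, and the count was 0 for chloride transport and stromal genes higher and for potassium and proton transport, smooth muscle and red cell or fat genes lower. Per kilobase of transcript, the shares were 45.3% (Dox+) and 58.2% (Dox−) for Fxyd1, 6.97% and 25.8% for Fxyd3, 41.2% in Dox+ for Fxyd4, and 43.2% and 15.6% for Atp1b1. No paired analysis was possible because each condition has 1 library. Depth limits Fxyd5, Fxyd2 and Fxyd7, whose intervals span 1, and the spread between mice is unknown.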

Other observations

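Voltage-gated and acid-sensing sodium channel genes (symbols starting with Scn or Accn followed by a digit) were gathered after their values were seen. They carry sodium in excitable cells and as proton sensors, and 11 were in the table, none with 200 copies or more together. Of the 6 with at least 20 copies together, 4 were lower in Dox− and 1 was higher by at least 1.5-fold, beside 18.7% and 19.7% of all genes with that many copies. Scn2b, an auxiliary beta subunit, had 90 copies in Dox+ and 16 in Dox−, a ratio of 0.182 (0.0998 to 0.312), and Scn4b, another beta subunit, had 21 and 2. Accn4, of the acid-sensing branch of the ENaC family, had 33 and 9 copies, 3.58-fold lower (1.68 to 8.51). Accn1 of the same branch had 67 and 124 copies, a ratio of 1.90 (1.40 to 2.59).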
